A study of Gallus gallus with 22 samples.

Results

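The genes described here are *GHRL* (ENSGALG00010019047), which encodes the peptide hormone ghrelin, and *POU1F1* (ENSGALG00010007661), which encodes a transcription factor of the pituitary gland. These 2 genes of the 17007 in the count table were taken by identifier, for their place in the hormonal control of growth. The study already lists *GHRL* as changed by the diet in the pancreas and *POU1F1* in the jejunum. The diet tests of these below use the same libraries and are therefore not independent evidence. Jejunum and pancreas were sampled from male broilers, chickens bred for meat, on d 24 after feeding a coarsely ground corn diet with 2% sugarcane bagasse (SB), the fibrous residue of sugarcane, or the same diet with 0% SB (control). There were 6 SB and 5 control libraries from the jejunum and 5 SB and 6 control libraries from the pancreas, each from 1 broiler of a separate pen, and libraries that the study excluded as outliers are not analysed here. The comparisons ask in which tissue each gene was expressed, how far broilers of one diet differed, and whether the diet shifted either gene.

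Ghrelin is secreted by endocrine cells of the gut, in birds mainly by those of the proventriculus (the glandular stomach), and acts on a receptor in the pituitary to release growth hormone. In mammals, a small population of pancreatic islet cells also makes it. In chickens, injected ghrelin reduces feed intake, whereas in mammals it stimulates appetite. *POU1F1* is a homeodomain factor that pituitary cells need in order to transcribe the genes of growth hormone, prolactin and the beta subunit of thyrotropin, and the intestine and pancreas are not known as its usual sites of expression.

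In the RefSeq annotation of GRCg7b, *GHRL* lies on chromosome 12 from 19630797 to 19633503. Its whole span falls within that of the long non-coding RNA gene *LOC121106668* (19629069 to 19635115), which also reaches into *SEC13* (19634968 to 19642349). The counts carry Ensembl identifiers, and it is not stated whether the counting used the strand. Whether this overlapping gene was part of the counting, and how it affects the *GHRL* count, is therefore not known. *POU1F1* lies on chromosome 1 from 93020689 to 93036563, and no other annotated gene overlaps it, the nearest being *CHMP2B* at 93038898 to 93050442.

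Jejunal libraries held 42540952 to 203039911 counts in SB-fed and 42998544 to 54841516 counts in control broilers. Pancreatic libraries held 80467800 to 300479804 counts in SB-fed and 65957320 to 166039437 counts in control broilers. Their median was 186019684 in SB-fed and 74145354.5 in control broilers, so that depth moved with the diet in the pancreas. In every group, the mean clean reads that the study reports were fewer than the smallest of these totals, for a reason not known here. Counting errors below take each count as 1 separate read. The tissue labels could not be checked by whole lists of named markers. Gene sets were instead taken from the contrast of the tissues in these libraries, which fixes their direction. Levels are given in CPM, the count of a gene scaled to the size of the library. A set of 147 genes with at least 100 CPM in the jejunum and at most 1% of that in the pancreas took between 81741 and 148233 CPM of jejunal libraries and between 125 and 1619 CPM of pancreatic ones. The 41 genes set apart the same way for the pancreas took between 655439 and 773893 CPM of pancreatic libraries and between 16.4 and 47.4 CPM of jejunal ones.

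Both genes were detected in every library of both tissues, at low levels. *GHRL* was counted 48 to 292 times per jejunal library and 52 to 1571 times per pancreatic library. *POU1F1* was counted 36 to 1037 times per jejunal library but only 4 to 286 times per pancreatic library, where counting error alone reached 50.0% of the value in the library with 4 counts. Of the genes tested in the jejunum, 11.9% had a lower mean than *GHRL* and 21.9% a lower mean than *POU1F1*. In the pancreas, 27.4% had a lower mean than *GHRL* and 8.22% a lower mean than *POU1F1*. In bulk tissue, fewer cells that express a gene and less RNA per cell cannot be told apart.

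The tissues differed in opposite directions for the 2 genes: *GHRL* was lower in the jejunum than in the pancreas and *POU1F1* was higher in the jejunum. Scaled over both tissues by the trimmed mean of M-values (TMM), *GHRL* was at 0.839 ± 0.272 CPM in the jejunum and 4.18 ± 2.75 CPM in the pancreas (SD, n = 11 each). The ranges were 0.510 to 1.41 CPM in the jejunum and 0.994 to 10.8 CPM in the pancreas, and only the pancreas of control replicate 4 lay within the jejunal range. The log2 difference, jejunum over pancreas, was -2.27 (standard error 0.26), or 4.84-fold higher in the pancreas (edgeR's quasi-likelihood F test, adjusted p = 7.41e-08). *POU1F1* was at 2.51 ± 2.52 CPM in the jejunum and 0.737 ± 0.570 CPM in the pancreas (SD, n = 11 each), with ranges of 0.493 to 9.08 CPM in the jejunum and 0.0956 to 1.99 CPM in the pancreas. The tissues overlapped, since 6 of the 11 pancreatic values exceeded the lowest jejunal one. Its log2 difference was 1.51 (standard error 0.48), or 2.84-fold higher in the jejunum (edgeR, adjusted p = 0.00742). An adjusted p under 0.05 was reached by 77.6% of the 15032 genes tested between the tissues, 40.4% higher and 37.2% lower in the jejunum, so that a difference between the tissues was common.

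The size of both tissue differences depended on the scaling. The most abundant gene took 15.3% to 25.6% of the counts of a pancreatic library but 0.704% to 1.93% of a jejunal one, and TMM scaling moved the median gene by 1.62 on the log2 scale. With library totals alone, *GHRL* was at 1.47 ± 0.469 CPM in the jejunum and 2.33 ± 1.47 CPM in the pancreas, a log2 difference of -0.62 (standard error 0.24), against a median of 1.65 over all genes. With the same totals, *POU1F1* differed by 3.05 (standard error 0.52). Neither direction turned, and edgeR's adjusted p was 0.0197 for *GHRL* and 1.22e-05 for *POU1F1*.

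Within broilers, the tissues were compared through the 10 pairs of libraries whose column names carry the same number, taken as 1 broiler each. The edgeR fits above did not use this pairing. With the broiler as a block in edgeR, the log2 difference was -2.28 for *GHRL* (adjusted p = 1.13e-05) and 1.28 for *POU1F1* (adjusted p = 0.0209). After TMM scaling over both tissues, *GHRL* was lower in the jejunum than in the pancreas in 10 of 10 broilers, by a mean of -2.24 ± 1.05 on the log2 scale (SD, exact sign-flip permutation test, two-sided, p = 0.00195, the smallest it can give). The difference was largest in the SB broilers numbered 11 (-3.96) and 3 (-3.70) and smallest in control broiler 39 (-0.19). With library totals, 9 of 10 broilers kept this direction, and the mean of -0.65 ± 1.01 did not pass the same exact test (p = 0.0762). *POU1F1* was higher in the jejunum in 9 of 10 broilers, by a mean of 1.37 ± 1.47 (exact sign-flip permutation test, p = 0.0117). The exception was SB broiler 11, at -0.33, whereas control broiler 9 had the widest gap, 4.26. With library totals, *POU1F1* was higher in the jejunum in 10 of 10 broilers (mean 2.91 ± 1.43, exact sign-flip permutation test, p = 0.00195).

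**Figure D1:**
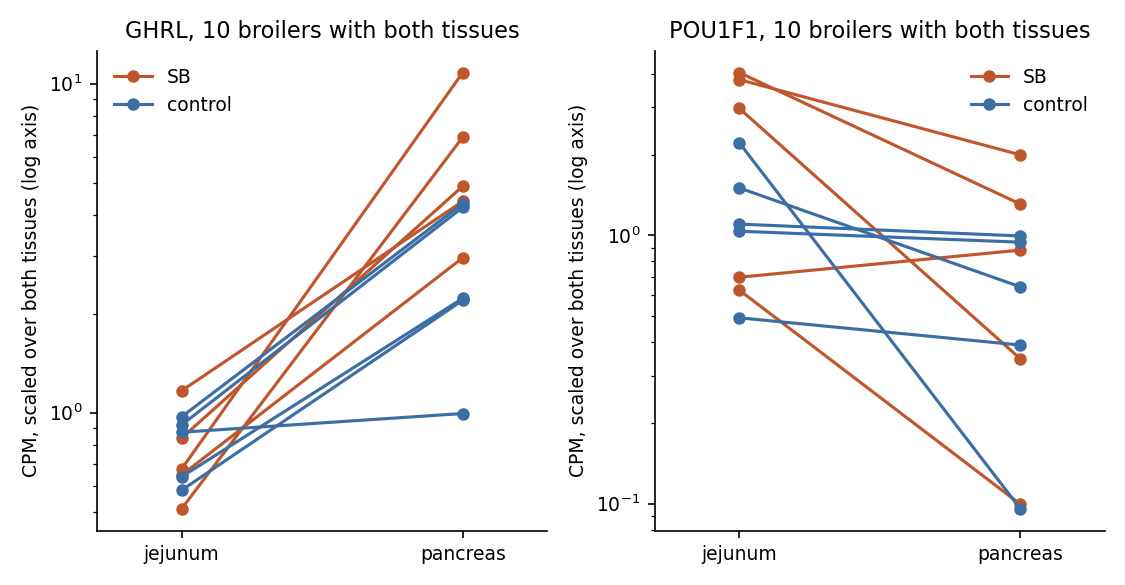
Expression of *GHRL* (left) and *POU1F1* (right) in CPM scaled over both tissues (log axis) in the jejunum and pancreas of 10 broilers, each line joining the 2 libraries of 1 broiler, SB in orange and control in blue. All 10 lines rise toward the pancreas for *GHRL*, and 9 of 10 fall toward it for *POU1F1*.

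From here on, CPM are scaled within each tissue, and the diets were compared within a tissue. A differentially expressed gene (DEG) has an absolute log2 fold change, SB over control, that reaches 1, together with an unadjusted P below 0.05, the thresholds of the study. In the pancreas, *GHRL* was higher in SB-fed broilers, at 3.83, 6.08, 2.46, 2.78 and 1.69 CPM in SB replicates 1 to 5, against 1.23, 1.24, 2.41, 0.571, 2.48 and 1.27 CPM in control replicates 1 to 6. Of the SB libraries, 3 lay above every control library and all 5 lay above the control median of 1.26 CPM, while replicates 3 and 5 fell within the control range. The means were 3.37 ± 1.70 CPM in SB-fed (SD, n = 5) and 1.53 ± 0.753 CPM in control broilers (SD, n = 6). *GHRL* was 2.25-fold higher, or 1.17 on the log2 scale (edgeR, standard error 0.39, unadjusted P of 0.0115). Over the 14116 genes tested this corresponded to an adjusted p = 0.995, so the gene did not pass adjustment. The exact permutation test of log2 CPM gave p = 0.0238 (two-sided, 462 regroupings). *GHRL* thus met the DEG thresholds, as did 1.10% of the genes tested in the pancreas (0.659% higher and 0.439% lower in SB-fed broilers), and by unadjusted P it ranked 137 of 14116. The 93 higher and 62 lower genes became 68 higher and 73 lower with library totals, 148 and 185 with no filter, and 72 and 164 without SB replicate 1, so that neither direction prevailed throughout. After adjustment, edgeR and limma-voom called 0 genes in the pancreas and DESeq2 called 15, while 543 genes (3.85%) were under 0.05 in edgeR's test without adjustment. *GHRL* was not among the 15 (DESeq2's Wald test, adjusted p = 0.511).

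The highest *GHRL* value, in SB replicate 2, came from the deepest library of the series. The 5 SB pancreas libraries had the same order in *GHRL* and in total count. Over the 11 pancreas libraries, log2 total count and *GHRL* had a Pearson r of 0.69 (permutation p = 0.0171, adjusted p = 0.171 over 10 relations) and a Spearman rho of 0.71 (permutation p = 0.0187, adjusted p = 0.187). Without SB replicates 1 and 2, the libraries farthest from the median depth, r was 0.38, and within diets, with the diet means subtracted, it was 0.44. Control replicate 6, with 166039437 counts, had 1.27 CPM and did not follow the order of the SB libraries. With log2 total count as a covariate, a fit added after the data were seen, the log2 fold change of *GHRL* was 0.45 (edgeR, standard error 0.57, unadjusted P of 0.452). Depth moved with the diet in these libraries, so this fit cannot tell the 2 apart. Random thinning keeps the expected CPM of each gene, so it cannot show whether the *GHRL* level follows depth. After thinning every pancreas library to the depth of the shallowest one, the log2 fold change of *GHRL* was 1.18 (unadjusted P of 0.00980). Without SB replicate 2 it was 0.84 with an unadjusted P of 0.0438, below the fold threshold, and this was the only omission of the 11 that ended the call.

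Some genes known from gut epithelium were also higher in SB-fed than in control pancreas. Of the genes that the study lists for their difference in these libraries, 6 are described here. They are *AGR2* and *TFF3* of mucus-secreting cells, the sodium-proton exchangers *SLC9A3* and *SLC9A4*, and the calpain proteases *CAPN8* and *CAPN9*. In the jejunum, *TFF3* was low too, at a mean of 1.23 CPM, and *SLC9A4* was at 7.53 CPM. The jejunal means of the others were 345 CPM for *AGR2*, 275 CPM for *SLC9A3*, 38.6 CPM for *CAPN8* and 64.2 CPM for *CAPN9*. These 6 were picked after values were seen and are not a full count of epithelial genes in the list. Each had a higher median in SB-fed than in control pancreas, a direction that their listing fixes. The jejunal gene set described above was not chosen by diet. It took 193 to 1619 CPM of SB-fed and 125 to 1151 CPM of control pancreas libraries, so the diets overlapped. A diet difference of that set was not tested. *AGR2* was at 2.10 to 12.5 CPM in SB-fed and 0.945 to 4.40 CPM in control broilers, and *SLC9A3* at 0.740 to 5.74 CPM in SB-fed and 0.0932 to 1.28 CPM in control broilers. The ranges of *SLC9A4* were 0.0679 to 3.13 CPM in SB-fed and 0.0440 to 0.474 CPM in control broilers. With the diet means subtracted, their r with *GHRL* over the 11 libraries was 0.63 for *SLC9A4*, 0.43 for *CAPN8*, 0.35 for *TFF3*, 0.32 for *AGR2*, -0.12 for *SLC9A3* and -0.21 for *CAPN9*. Their part in the *GHRL* difference was not tested.

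**Figure D2:**
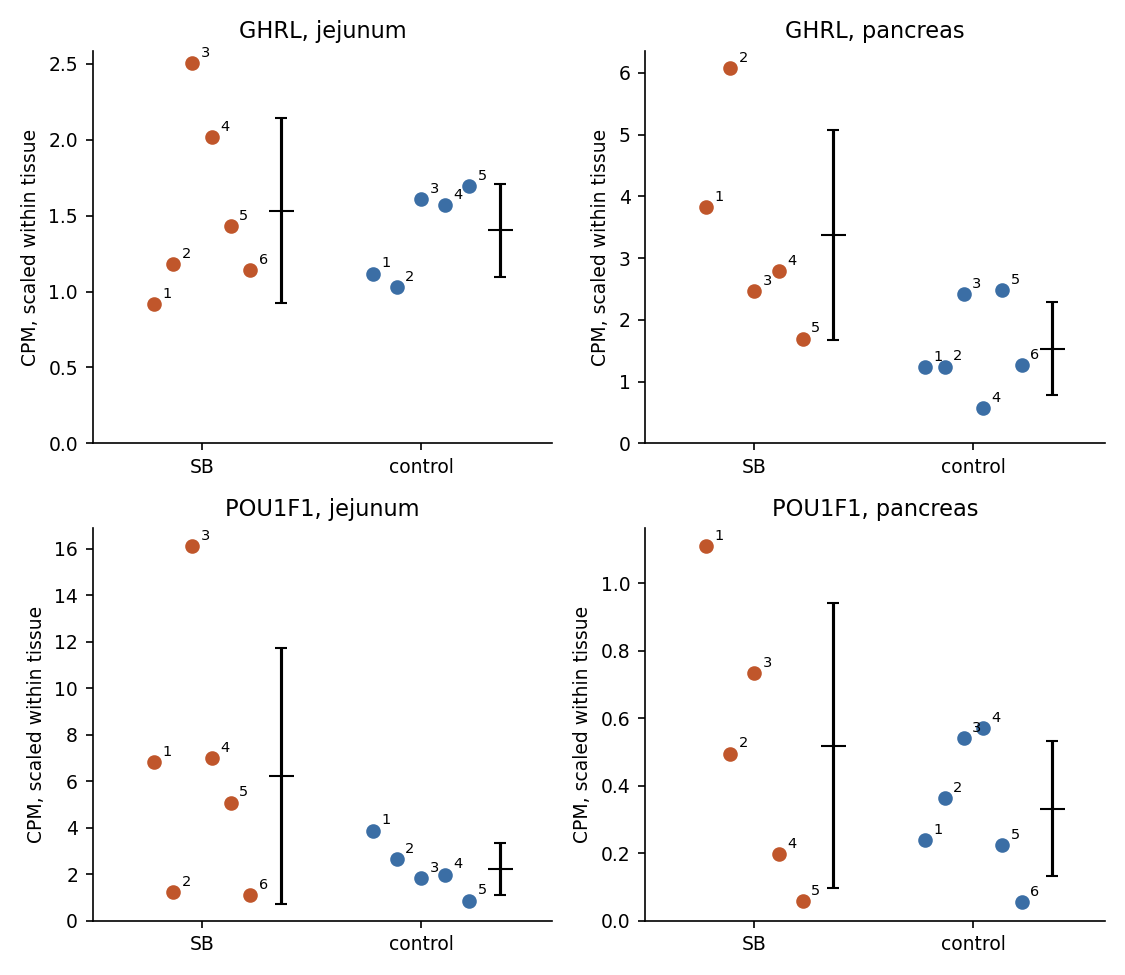
Expression of *GHRL* (top) and *POU1F1* (bottom) in the jejunum (left) and pancreas (right), in CPM scaled within tissue, with SB left of control. Each point is 1 library labelled with its replicate number, and the bar gives the mean and SD. The diets overlap in all 4 panels, and SB replicate 3 of the jejunum is the highest for both genes in that tissue.

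In the jejunum, *GHRL* did not pass the thresholds. It was at 0.915, 1.18, 2.51, 2.02, 1.43 and 1.14 CPM in SB replicates 1 to 6, against 1.12, 1.03, 1.61, 1.57 and 1.69 CPM in control replicates 1 to 5. SB replicates 3 and 4 lay above every control library and replicate 1 below every one. The means were 1.53 ± 0.609 CPM in SB-fed (SD, n = 6) and 1.40 ± 0.307 CPM in control broilers (SD, n = 5), which gave a log2 fold change of 0.11 (standard error 0.28, edgeR, unadjusted P of 0.704, adjusted p = 1.00). By exact permutation, p was 0.816.

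In edgeR's test, SB feeding went with a higher *POU1F1* level in the jejunum, but not in every broiler. It was at 6.83, 1.22, 16.1, 7.00, 5.08 and 1.10 CPM in SB replicates 1 to 6, against 3.88, 2.65, 1.81, 1.98 and 0.859 CPM in control replicates 1 to 5. Of the 6 SB libraries, 4 exceeded every control library, while replicates 2 and 6 lay within the control range, between its lowest and next library. The means were 6.22 ± 5.50 CPM in SB-fed (SD, n = 6) and 2.24 ± 1.12 CPM in control broilers (SD, n = 5). The difference was 2.75-fold, or 1.46 on the log2 scale (edgeR, standard error 0.64, unadjusted P of 0.0418), and its adjusted p = 1.00 over 14488 genes. In the exact permutation test, the difference was within the scatter of the libraries (p = 0.188). The DEG thresholds were met by 0.338% of the genes tested in the jejunum, 0.200% higher and 0.138% lower in SB-fed broilers, and *POU1F1* ranked 231 of 14488 by unadjusted P. After adjustment, edgeR, DESeq2 and limma-voom each called 0 genes in the jejunum, and 286 (1.97%) were under 0.05 in edgeR's test without adjustment.

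The jejunal call of *POU1F1* was lost with any 1 of 7 of the 11 libraries left out: SB replicates 1, 3 and 4 and control replicates 2, 3, 4 and 5. The log2 fold change then lay between 0.92 and 1.53 and the unadjusted P between 0.0598 and 0.132. It was lowest without SB replicate 3, at 0.92. Limma-voom also gave 0.92, with an unadjusted P of 0.249.

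**Figure D3:**
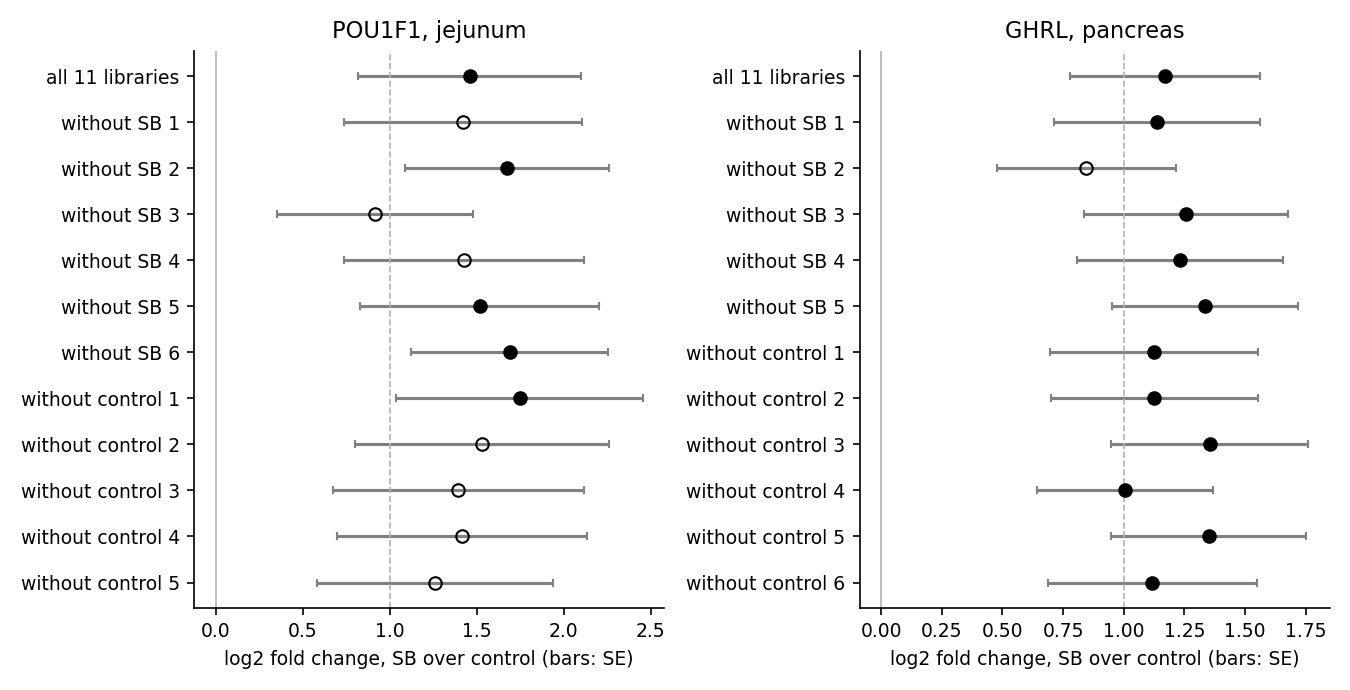
Log2 fold change, SB over control, of *POU1F1* in the jejunum (left) and *GHRL* in the pancreas (right), with all 11 libraries and with each left out in turn. Bars are standard errors, the dashed line marks a log2 fold change of 1, and filled points met both DEG thresholds: 4 of 11 omissions kept the call for *POU1F1* and 10 of 11 for *GHRL*.

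In the pancreas, *POU1F1* was at 1.11, 0.495, 0.733, 0.197 and 0.0569 CPM in SB replicates 1 to 5, against 0.238, 0.363, 0.540, 0.571, 0.224 and 0.0545 CPM in control replicates 1 to 6. Both diets spanned more than 10-fold. The lowest SB and the lowest control library rested on 4 and 10 counts. The means were 0.519 ± 0.422 CPM in SB-fed (SD, n = 5) and 0.332 ± 0.200 CPM in control broilers (SD, n = 6). The log2 fold change of 0.79 (standard error 0.64, edgeR, unadjusted P of 0.241) did not pass the thresholds, and by exact permutation p was 0.645. It was 0.35 without SB replicate 1 and 0.47 without control replicate 6, so that its size rested on single libraries. The results text of the study names *POU1F1* among genes upregulated in the pancreas, whereas its discussion and DEG list place the gene in the jejunum.

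Among libraries of one diet, *POU1F1* spread more than most genes tested, which were not matched for expression level. The coefficient of variation of *POU1F1* was 88.4% in the SB and 50.0% in the control jejunum, and 81.4% in the SB and 60.2% in the control pancreas. The median over all genes tested lay between 16.5% and 20.6% in the 4 groups, and between 86.2% and 98.3% of genes varied less than *POU1F1*. The highest library exceeded the lowest by 14.6-fold in the SB jejunum and by 19.5-fold in the SB pancreas. *GHRL* varied less in the jejunum, by 39.8% in SB-fed and 21.9% in control broilers, than in the pancreas, where it varied by 50.4% in SB-fed and 49.1% in control broilers. In the control jejunum its highest library exceeded its lowest by 1.65-fold, and 64.2% of genes varied less than *GHRL* there, against 80.2% to 85.7% in the other groups. Counting error was at most 14.4% for *GHRL* in any library, below the spread in each group. For *POU1F1* it reached 13.0% in the SB and 16.7% in the control jejunum, but 50.0% in the SB and 31.6% in the control pancreas. Part of the pancreatic spread of *POU1F1* can therefore be counting error.

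The diet difference of *GHRL* in the jejunum minus that in the pancreas was -1.05 on the log2 scale (standard error 0.50) in one fit over the 4 groups. The unadjusted P was 0.0485 and the adjusted p = 1.00, and 3.47% of the 15032 genes had an unadjusted P under 0.05 for this interaction. Permuting the diets over the 10 broilers with both tissues gave p = 0.0397 for *GHRL* (exact test, two-sided, 252 regroupings), with a mean jejunum minus pancreas difference of -2.85 in 5 SB-fed and -1.63 in 5 control broilers. With library totals, the same exact test gave p = 0.159. The study lists *GHRL* for its pancreatic diet difference in these same libraries, so these tests are not independent evidence. For *POU1F1*, the interaction was 0.72 (standard error 0.96, edgeR, unadjusted P of 0.459), with p = 0.770 by exact permutation over broilers.

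The 2 genes did not vary together beyond the scatter of the libraries in either tissue. In the jejunum, the Pearson r of *GHRL* with *POU1F1* was 0.34 (n = 11, permutation p = 0.309) and Spearman's rho was 0.13 (permutation p = 0.716). SB replicate 3 was highest for both, and r was 0.22 without SB replicates 1 and 3. In the pancreas, r was 0.28 (permutation p = 0.400) and rho 0.17 (permutation p = 0.615), and r was 0.60 without control replicate 4 and SB replicate 2, the libraries farthest from the median of *GHRL*. With the diet means subtracted, r was 0.34 in the jejunum and 0.25 in the pancreas, and 23.2% of all genes compared in the jejunum and 33.5% in the pancreas were more alike to *GHRL* than *POU1F1* was. Across the tissues of the 10 broilers, r was -0.10 for *GHRL* (permutation p = 0.781; rho 0.04, permutation p = 0.918) and 0.32 for *POU1F1* (permutation p = 0.364; rho 0.39, permutation p = 0.264). Without SB broilers 3 and 26, it was -0.14 for *POU1F1*. All adjusted values for these relations were between 0.868 and 0.918.

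**Figure D4:**
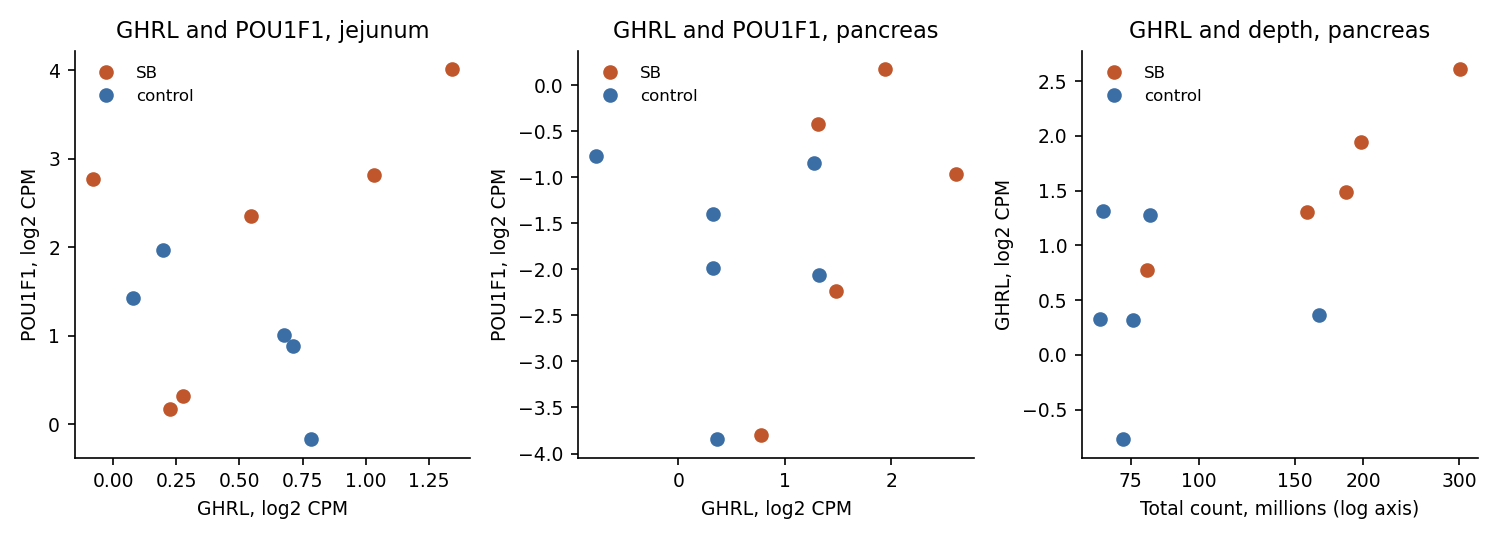
*POU1F1* against *GHRL* in the jejunum (left) and pancreas (middle) and *GHRL* against the total count of the library in the pancreas (right, log axis), in log2 CPM scaled within tissue, 1 point per library, SB in orange and control in blue. The 2 genes have no clear common order, while the deepest pancreas library is the highest in *GHRL*.

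By correlation of log2 CPM with the diet means subtracted, the gene most like *GHRL* in the pancreas was ENSGALG00010005381 (r = 0.95 over 11 libraries, among 11839 other genes with a mean of at least 1 CPM). It was expressed at 0.791 to 2.64 CPM. The gene most like *POU1F1* in the jejunum was ENSGALG00010009080 (r = 0.93, among 13178 genes), at 6.83 to 13.6 CPM. With 11 libraries and this many genes, the highest r is high in any case, so that these are descriptions only. Among the other genes that the study lists as changed in the pancreas, 86 that matched 1 identifier each were higher in SB-fed broilers. Of these, 1 had an r above 0.6 with *GHRL*, against 4.61% of the 11839 genes. This was *SLC9A4*, a sodium-proton exchanger known from gastric acid-secreting cells of mammals, with r = 0.63. Of 22 such genes in the jejunum, *LOC121106936* (r = 0.81) and *ZNFY1* (r = 0.61) were above 0.6 with *POU1F1*, against 1.67% of the 13178 genes. The listed genes were not held to the minimum of 1 CPM, and the cutoff of 0.6 was chosen after values were seen. These shares are therefore not a like comparison.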

How the data were processed

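RNA libraries of the jejunum and pancreas were analysed. The authors deposited raw counts per gene, made with HTSeq from reads that Trimmomatic had trimmed and STAR had aligned to GRCg7b. Whether the counting was stranded is not given in the sources used here. The deposited log2 values are edgeR's log2 CPM, since 374154 of 374154 were recomputed from the counts to within 1e-06, and were used for this check only. In R 4.3.3, edgeR 4.0.16 removed genes of low count with filterByExpr (minimum count 10, minimum total count 15), which does not require 10 counts in every library. It then computed TMM factors and fitted the current quasi-likelihood F test (legacy = FALSE), with Benjamini-Hochberg adjustment over all genes tested. DESeq2 1.42.0 and limma 3.58.1 served as alternatives. Log2 CPM have a prior count of 2. Standard errors are the log2 fold change divided by the square root of F. The procedure was also run on simulated data. Changes there were larger than the diet differences of *GHRL* and *POU1F1*, and the spread was smaller than that of *POU1F1*. That run therefore does not show how the procedure performs for diet differences like theirs. Correlations used 100000 permutations.

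The symbols were given with the identifiers and checked against the study's supplementary tables, whose entries matched 1 identifier each for *GHRL* and *POU1F1* when the fit was run with the legacy and robust options. The reference table pairs 0 of its 25635 genes with an Ensembl identifier, so lists of other growth-axis genes and of cell type markers are not analysed here. The tissues could therefore not be checked by whole lists of named markers. Both members and the lists were chosen with earlier results of these data known. Named genes are the 2 members, the gene most like each in a tissue, and genes of the study's tables with r above 0.6. The 6 epithelial genes and the cutoff of 0.6 were chosen after values were seen. The smallest chi-square between replicates was 54.3 per gene, so no library was a copy of another. Libraries of the 2 tissues with the same column number were taken as 1 broiler, since the study took both tissues from 1 broiler per pen, although the labels do not state it. The correlation of their deviations from group means was between -0.04 and 0.23 over 10 pairs. That 1 broiler was sampled per pen makes the libraries of a group separate animals.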

Additional observations from a re-analysis of the deposited data

Results flagged for a closer look

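The diet difference of *GHRL* was larger in the pancreas, where the study lists it from these same libraries, than in the jejunum. The interaction of diet and tissue was -1.05 on the log2 scale (jejunum minus pancreas) with an unadjusted P of 0.0485, and with an adjusted p = 1.00 it did not pass adjustment over all genes (edgeR). In no group did the highest or lowest library of either gene lie apart from the others by Dixon's test at the 95% level, which flags about 1 group in 20 by chance.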

How the results depend on the processing

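The *POU1F1* call in the jejunum was lost with limma-voom, at 0.92 (unadjusted P of 0.249), and with libraries left out in turn it was 0.92 to 1.75, with 7 of 11 omissions losing the call. The *GHRL* call in the pancreas was lost with the replicate number as a block, at 1.14 (unadjusted P of 0.0599). It was also lost with log2 total count as a covariate, an alternative chosen after seeing the data, at 0.45 (standard error 0.57). With libraries left out it was 0.84 to 1.36. The labels do not state that replicate numbers pair the diets. Same-numbered libraries had correlations of -0.405 to 0.170 in the jejunum and -0.520 to 0.241 in the pancreas. With 5 pairs per tissue, these cannot tell whether the numbers pair the diets. The block changed no other diet call. *GHRL* in the jejunum was -0.074 to 0.20 with libraries left out, and turned only without SB replicate 3. The *GHRL* interaction passed an unadjusted P of 0.05 neither with DESeq2 size factors, the 1 CPM filter or the legacy method (-1.04 each) nor with the broiler as a block and library totals (-1.002). It was -1.24 to -0.73 with libraries left out, 13 of 22 omissions losing it. The *POU1F1* interaction turned to -0.012 with limma-voom. The *POU1F1* tissue difference did not pass in control libraries alone, at 1.13 (edgeR, adjusted p = 0.0721). The *GHRL* tissue difference kept its direction and call in all 13 alternatives and 22 omissions, at -2.87 to -0.62 over the alternatives. *POU1F1* in the pancreas passed in none of its 12 alternatives and 11 omissions, at 0.18 (replicate block) to 0.98 over the alternatives and 0.35 to 1.09 with libraries left out. The 1 CPM filter removed it there, so that setting gives no value.

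The 49 DEGs of the jejunum became 148 with no filter and 21 with the 1 CPM filter, and 44 to 83 with libraries left out, the most without SB replicate 1. The 155 of the pancreas became 100 with limma-voom, 333 with no filter, 60 with the 1 CPM filter and 300 in one fit over both tissues, and 144 to 236 with libraries left out, the most without SB replicate 1, where the higher and lower genes were 72 and 164 against 93 and 62 with all libraries. In the jejunum, that omission gave 29 higher and 54 lower, against 29 and 20. The *POU1F1* counts in the pancreas limit what can be seen there.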
